A study of Mus musculus with 19 samples.

Results

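The lipoxygenase family was examined in sorted mammary luminal cells (LCs) as 8 genes, namely the 7 arachidonate lipoxygenases Alox15, Alox12, Alox12e, Alox12b, Aloxe3, Alox8 and Alox5, and Alox5ap, the activating protein of Alox5. The members were taken by their gene name on the arrays, where 11 of 56605 probes carried one of these names. They were selected on the measured levels of Alox15 and Alox12, which were lower in C451A-ERα LCs under E2, so the genotype difference under E2 is described here without a test. Of the 8 members, 7 passed the filter on dim probes and belonged to the 20803 genes tested, and Alox5 did not pass it. The mice carried either the C451A-ERα knock-in, which removes the palmitoylation site that anchors the estrogen receptor ERα at the membrane, or wild-type ERα, and all were ovariectomized C57Bl/6N females of 8 weeks. The pellet was placed 10 days after an ovariectomy at 24 days of age, and contained either E2 with progesterone (E2+Pg, 0.01 mg and 1.5 mg over 60 days) or E2 alone (0.01 mg over 60 days), for 21 days of treatment. There were 5 C451A-ERα and 5 wild-type mice with E2+Pg, and 5 C451A-ERα and 4 wild-type mice with E2. The knock-in is present in every cell of the mouse, so that LCs had developed among mutant stroma and basal cells, and the arrays do not read the genotype itself.

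Lipoxygenases insert oxygen into polyunsaturated fatty acids such as arachidonic and linoleic acid, giving hydroperoxides that are turned into hydroxy fatty acids, hepoxilins, lipoxins or leukotrienes. Several members are best known from other cells than LCs: Alox12 from platelets, Alox15 from resident macrophages and eosinophils, Alox5 with Alox5ap from leukocytes that make leukotrienes, and Alox12b with Aloxe3 from the skin, where they build the water barrier. In the mouse, Alox15, Alox12e and Alox12 lie together on chromosome 11, and Aloxe3, Alox12b and Alox8 form a second group on the same chromosome.

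RNA of CD24+CD29lo LCs was labelled with 1 dye and hybridized to 1 Agilent array per mouse, on 5 slides that each held 1 mouse per group, except for 1 slide without a wild-type E2 mouse. A level is the quantile-normalized log2 of the median spot signal, a log2 difference is the difference of 2 group means of it, and a fold is its antilog. Between 26473 and 31259 probes per array were well above background, a flag of the scanner software. The luminal keratins Krt8 (16.47 to 17.80) and Krt18 (18.02 to 18.23) and the epithelial surface marker Epcam (12.76 to 14.46) were well above background in all 19 mice. Mice L18 (mean correlation of 0.961 with the other mice of its group), L4 (0.966) and L27 (0.970), all C451A-ERα, stood farthest from their own groups, followed by the wild-type mouse L21 (0.971). In bulk RNA, fewer cells of a type and less RNA per cell cannot be told apart.

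The sequence that carries the Alox15 readings was a probe of 60 bases, starting at base 1426 of the transcript. On the mm9 build it covered chr11:70159115-70159339 on the minus strand, a span of 225 bases, so that it crosses a splice junction and reads spliced RNA. It is shown because every Alox15 value below comes from it.
Alox15 probe: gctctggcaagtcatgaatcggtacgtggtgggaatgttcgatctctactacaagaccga

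Of the 8 members, 5 had a promoter in the RefSeq table of the GRCm38.p6 build, from which the 250 bases before the start of Alox12e and Alox12 are shown, as these are the members of the Alox15 group that the table holds. Alox12e lies at chr11:70322531-70322780 and Alox12 at chr11:70255371-70255620 for these bases, both on the minus strand. Capitals mark the GC box GGGCGG and the progesterone receptor half-site TGTTCT, on either strand.
Alox12e promoter: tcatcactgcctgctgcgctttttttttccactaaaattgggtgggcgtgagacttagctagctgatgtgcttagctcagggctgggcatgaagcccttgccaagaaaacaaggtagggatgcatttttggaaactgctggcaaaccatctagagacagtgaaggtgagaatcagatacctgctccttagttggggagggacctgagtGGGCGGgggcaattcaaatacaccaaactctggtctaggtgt
Alox12 promoter: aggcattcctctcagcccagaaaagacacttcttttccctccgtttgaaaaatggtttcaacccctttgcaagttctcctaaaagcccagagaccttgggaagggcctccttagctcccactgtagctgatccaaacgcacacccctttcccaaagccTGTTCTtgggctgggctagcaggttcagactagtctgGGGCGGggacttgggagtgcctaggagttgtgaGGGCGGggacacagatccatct

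The Alox12 stretch held 1 TGTTCT, which 16.1% of all 32851 promoters hold in the same window, and the Alox12e stretch held none. The GC box was found in all 5 members with a promoter, against 32.7% of all promoters. The estrogen response half-site GGTCA, searched on both strands, was in none of the 5 and in 35.2% of all promoters. A match of letters is a description and not a binding site, and no matches overlapped in the stretches shown.

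Alox15, which oxygenates arachidonic and linoleic acid also within membranes, was the member with the clearest separation under E2. Its level was 5.86, 4.93, 5.66, 5.32 and 5.48 in the 5 C451A-ERα mice with E2, against 7.66, 7.13, 7.46 and 7.33 in the 4 wild-type mice with E2. The groups did not overlap, and the gap between the highest C451A-ERα mouse and the lowest wild-type mouse was wider than the range within either group. The mean was 5.45 ± 0.35 in C451A-ERα LCs (SD, n = 5) and 7.40 ± 0.22 in wild-type LCs (SD, n = 4), a log2 difference of -1.95 or a fold of 3.85. The probe was well above background in 3 of the 5 C451A-ERα mice and in 4 of 4 wild-type mice. The log2 difference varied with the processing, at -3.22 with the processed signal, which was also scaled differently, and -1.37 after a normexp correction. The cause of this variation was not tested. Within the 4 slides that held both genotypes with E2, the log2 difference was -2.20 to -1.80.

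With E2+Pg, Alox15 was at 5.13, 5.82, 6.06, 5.45 and 6.38 in C451A-ERα LCs, against 6.44, 6.74, 6.60, 6.42 and 5.58 in wild-type LCs. These groups overlapped through the wild-type mouse L21, which had the 5.58 and was not well above background. The log2 difference was -0.59 ± 0.24 (SE, 95% interval -1.10 to -0.08), and C451A-ERα was lower in 4 of 5 slides. It did not pass the test across all genes (limma, adjusted p = 0.231), and an exact two-sided permutation test of the 10 mice gave p = 0.0873. By group mean, wild-type LCs with E2 stood highest, followed by wild-type LCs with E2+Pg, C451A-ERα LCs with E2+Pg and C451A-ERα LCs with E2, and every neighbouring pair in this order overlapped except the highest with the next. The difference of E2+Pg from E2 was -1.04 in wild-type LCs and 0.32 in C451A-ERα LCs on the log2 scale, both given as a description since the E2 mice served to choose the gene.

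**Figure D1:**
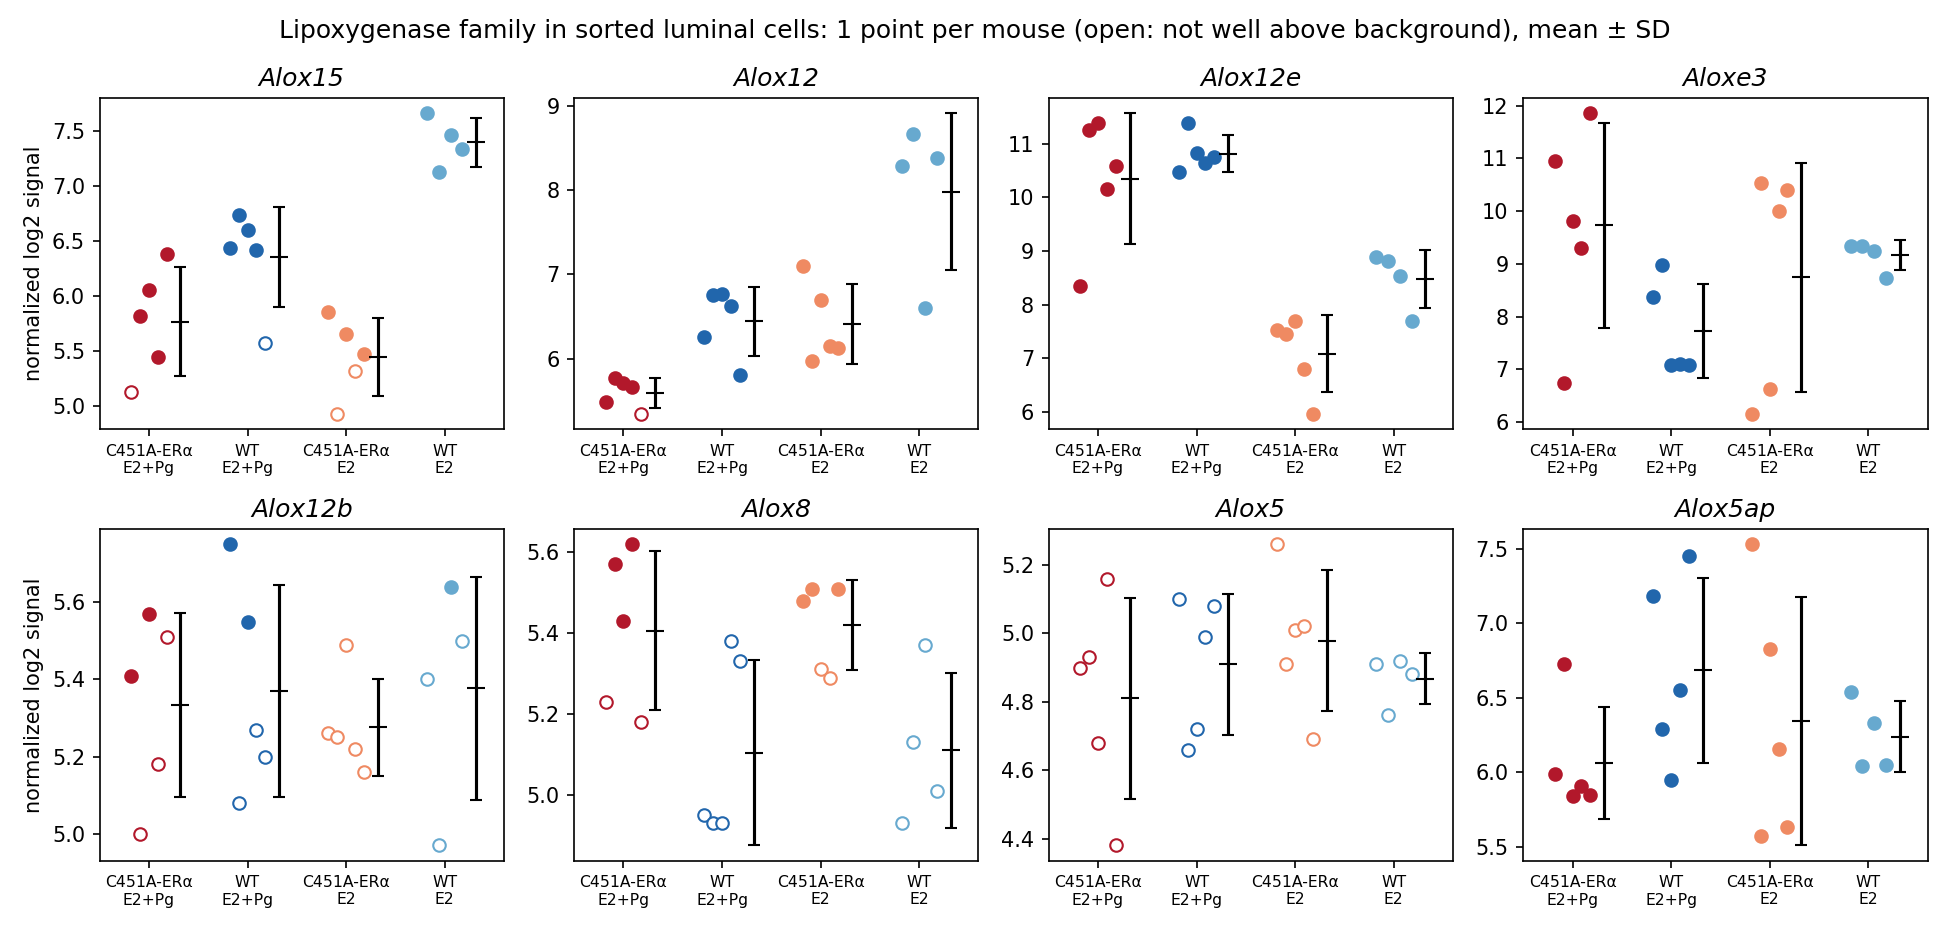
Normalized log2 signal (vertical axis) of the 8 members in each mouse, by genotype and pellet, with the group mean ± SD beside the points. Open points were not well above background. Alox15 lay at or below 6.74 in the mice of the other groups and between 7.13 and 7.66 in wild-type LCs with E2, and Alox12e lay at or above 10.15 in 9 of the 10 mice with E2+Pg.

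Alox12, the platelet-type lipoxygenase, was at 7.10, 5.97, 6.70, 6.15 and 6.13 in C451A-ERα LCs with E2, against 8.28, 8.66, 6.60 and 8.38 in wild-type LCs with E2. The groups overlapped through the wild-type mouse L72, whose 6.60 lay far below the other wild-type mice. The mean was 6.41 ± 0.47 in C451A-ERα LCs (SD, n = 5) and 7.98 ± 0.93 in wild-type LCs (SD, n = 4), a log2 difference of -1.57 or a fold of 2.97. A second, dimmer Alox12 probe was well above background in 3 mice only, all of them wild-type with E2, and mouse L72 was not among them. That probe did not pass the filter. Its log2 difference between genotypes was -0.55 under E2 and -0.10 with E2+Pg, with overlapping groups in both.

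With E2+Pg, Alox12 was at 5.48, 5.77, 5.71, 5.66 and 5.34 in C451A-ERα LCs, against 6.26, 6.75, 6.77, 6.63 and 5.81 in wild-type LCs. Every C451A-ERα mouse was below every wild-type mouse, in mice that had no part in the choice of the gene, and the difference was negative in 5 of 5 slides (-1.05 to -0.47). The probe was well above background in 4 of the 5 C451A-ERα mice, all but L63 at 5.34, and in 5 of 5 wild-type mice. The log2 difference was -0.85 ± 0.32 (SE, 95% interval -1.52 to -0.19), a fold of 1.81, and -1.39 to -0.58 in the other settings that gave a value. The exact two-sided permutation test gave p = 0.00794, the smallest value that 5 mice against 5 allow, whereas the test across all genes was not passed (limma, adjusted p = 0.206). Alox12 was the only 1 of the 7 members that passed the filter whose C451A-ERα mice all lay below the wild-type mice with E2+Pg, a pattern found for 353 of the 20803 genes (1.7%). Under E2, 2 of the 7 members had this pattern, Alox15 and Alox12e, and 294 of all genes (1.41%) had it, a count from which nothing is read because that comparison chose the family.

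Of 6 markers of platelets and megakaryocytes, 3 passed the filter, while Gp9, Gp1bb and Treml1 did not. In each comparison 0 of the 3 were called (limma), beside 0.0% to 2.45% of all genes, so nothing is read from this count. Their median log2 difference between genotypes was -0.14 under E2 and -0.67 with E2+Pg. Ppbp, a platelet chemokine, had the widest difference, at 4.87 ± 0.38 in C451A-ERα LCs with E2 (SD, n = 5) and 7.80 ± 1.99 in wild-type LCs with E2 (SD, n = 4; limma, adjusted p = 0.114), whereas Pf4 differed by 0.23 and Itga2b by -0.14 on the log2 scale. Ppbp was well above background in 1 of 5 C451A-ERα and 3 of 4 wild-type mice with E2, and in 0 of 5 and 4 of 5 with E2+Pg. The mean deviation of the 3 from their averages over all mice, on the log2 scale, was -0.55 to 0.22 in C451A-ERα LCs with E2 and -0.22 to 1.43 in wild-type LCs with E2, where L72 had the -0.22. It was -0.53 to -0.29 in C451A-ERα LCs with E2+Pg and -0.16 to 0.49 in wild-type LCs with E2+Pg. The sort kept CD45-negative and CD31-negative cells, and platelets carry CD31, but how far the sort removed platelets was not tested. The part of such cells in the Alox12 difference was not tested. For Alox15, the 8 macrophage markers, which all passed the filter, ranged from -0.42 to 0.49 in C451A-ERα LCs with E2 and from -0.27 to 0.44 in wild-type LCs with E2, and 1 of 6 eosinophil markers passed it.

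Alox12e, the epidermal-type lipoxygenase of the mouse, was the member that rose with progesterone. It was at 8.35, 11.26, 11.38, 10.15 and 10.59 in C451A-ERα LCs with E2+Pg, against 7.53, 7.46, 7.69, 6.81 and 5.96 in C451A-ERα LCs with E2. In wild-type LCs it was at 10.47, 11.38, 10.82, 10.64 and 10.75 with E2+Pg, against 8.88, 8.81, 8.53 and 7.70 with E2. Within each genotype the lowest mouse with E2+Pg was above the highest with E2, and the probe was well above background in all 19 mice. The rise was 3.26 ± 0.46 in C451A-ERα LCs (log2 difference and SE, a fold of 9.55, limma adjusted p = 0.0015) and 2.33 ± 0.49 in wild-type LCs (a fold of 5.03, limma adjusted p = 0.0262). Among the 20803 genes, it ranked 2 by log2 difference in C451A-ERα LCs and 8 in wild-type LCs. Mice with E2+Pg were higher in 5 of 5 slides for C451A-ERα and in 4 of 4 slides for wild-type.

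Of the 5 members open to a test of progesterone, Alox12e was the 1 called in each genotype, at an adjusted p below 0.05 and a fold above 1.5. By the same rule 213 of 20803 genes (1.02%) were called higher with E2+Pg in C451A-ERα LCs, and 121 (0.582%) in wild-type LCs. The call in wild-type LCs was not kept in every fit. Leaving out L67, L50, L52, L62 or L44 gave limma adjusted p-values of 0.0609, 0.0636, 0.119, 0.0679 and 0.0663, with log2 differences of 2.07 to 2.46. In the same order these fits called 0.375%, 0.38%, 0.135%, 0.514% and 0.529% of all genes in either direction, against 1.31% with all mice. A fit with the slide as a block gave 2.19 (limma, adjusted p = 0.0572) and called 0.365% of all genes. Of the 8 markers of hormone-sensing luminal cells, 4 were called lower with E2+Pg in C451A-ERα LCs and 0 in wild-type LCs, beside 297 and 152 of 20803 genes. The median log2 differences of the 8 markers were -1.17 and -0.85 in that order. Their mean deviation was -1.24 to 0.07 in C451A-ERα LCs with E2+Pg and 0.52 to 0.84 in C451A-ERα LCs with E2, and -0.75 to -0.33 in wild-type LCs with E2+Pg and 0.17 to 0.78 in wild-type LCs with E2. Their part in the Alox12e difference was not tested.

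Between genotypes with E2+Pg, Alox12e did not pass the test, with a log2 difference of -0.46 ± 0.46 (SE, limma adjusted p = 0.577, 95% interval -1.43 to 0.51), and without the C451A-ERα mouse L56 the difference was 0.04. Under E2 its mean was 7.09 ± 0.71 in C451A-ERα LCs (SD, n = 5) and 8.48 ± 0.54 in wild-type LCs (SD, n = 4), a log2 difference of -1.39, and the groups met without overlapping at 7.69 and 7.70. The rise with progesterone was 0.93 larger in C451A-ERα LCs on the log2 scale, which did not pass the test (interaction, limma adjusted p = 0.508, 95% interval -0.49 to 2.34). A second Alox12e probe, for another transcript, stayed near background in all 19 mice.

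**Figure D2:**
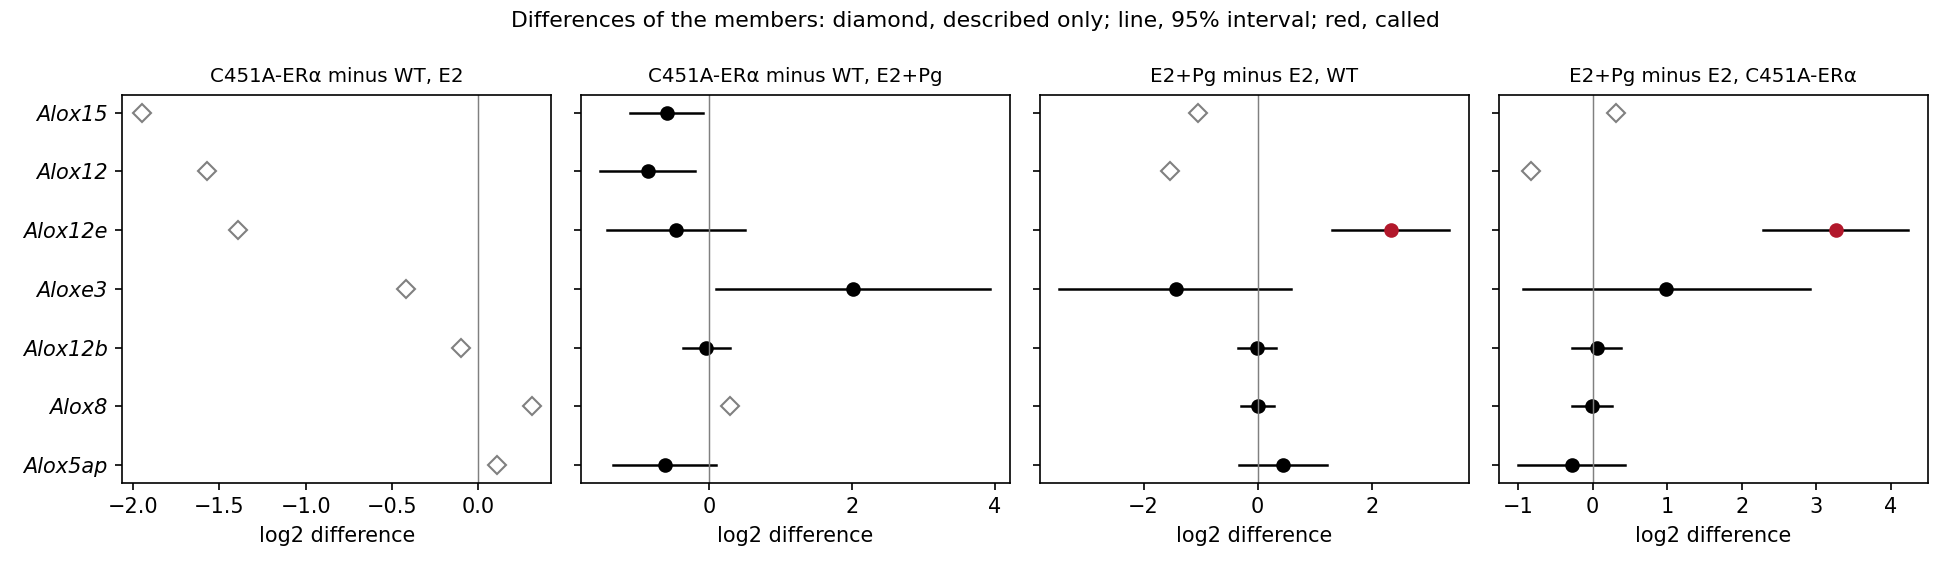
Log2 difference (horizontal axis) of the 7 members that passed the filter, in 4 comparisons. Diamonds are differences described without a test, which include Alox8 between genotypes, points are tested differences with their 95% interval as a line, and red points are called. The 2 red points are Alox12e, at 2.33 in wild-type LCs and 3.26 in C451A-ERα LCs, and all diamonds for Alox15, Alox12 and Alox12e under E2 lie at or below -1.39.

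Aloxe3, which isomerizes hydroperoxides in the skin barrier pathway, varied most between mice among the members. It was at 10.95, 6.75, 9.81, 9.31 and 11.86 in C451A-ERα LCs with E2+Pg, against 8.37, 8.97, 7.08, 7.10 and 7.08 in wild-type LCs with E2+Pg. Under E2 it was at 6.15, 10.54, 6.63, 10.01 and 10.40 in C451A-ERα LCs, against 9.34, 9.33, 9.24 and 8.74 in wild-type LCs. The 3 lowest mice of all, at 6.15, 6.63 and 6.75, were L4, L27 and L18, the same 3 mice that stood farthest from their groups over all genes. The SD was 1.94 with E2+Pg and 2.17 with E2 in C451A-ERα LCs, against 0.89 and 0.29 in wild-type LCs with the same pellets.

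The genotype difference of Aloxe3 with E2+Pg was 2.02 ± 0.91 (log2 difference and SE, n = 5 each), and it did not pass the test (limma, adjusted p = 0.257; exact two-sided permutation p = 0.0635). Within slides it was -2.21 to 4.78, higher in C451A-ERα LCs in 4 of 5. Without mice L4, L27 and L18, a setting chosen after the data were seen that removes the 3 lowest Aloxe3 values, it was 2.76 (limma, adjusted p = 0.00329), in a fit that called 3028 of 20803 genes (14.6%). The difference of E2+Pg from E2 was -1.44 in wild-type LCs (limma, adjusted p = 0.455) and 0.99 in C451A-ERα LCs (limma, adjusted p = 0.614). Neither passed the test, and the interaction of 2.44 did not pass it either (limma, adjusted p = 0.472). Of 9 epidermal markers 5 passed the filter, and Flg, Flg2, Dsg1a and Dsc1 did not. The mean deviation of the 5 was -0.50 to 0.73 in C451A-ERα LCs with E2+Pg, where L18, low in Aloxe3, had the 0.73, against -0.23 to 0.26 in wild-type LCs with E2+Pg. It was -0.30 to -0.03 in C451A-ERα LCs with E2, against 0.00 to 0.55 in wild-type LCs with E2. The 8 basal and myoepithelial markers were highest in L18 (0.86), and stood at 0.50 in L4 and 0.01 in L27.

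Alox12b, the partner of Aloxe3 in the skin, and Alox8, a lipoxygenase of irritated mouse skin, stayed close to background. Alox12b was well above background in 5 of 19 mice, namely 2 C451A-ERα and 2 wild-type mice with E2+Pg and 1 wild-type mouse with E2, at levels of 4.97 to 5.75 over all mice. Alox8 was well above background in 6 mice, all of them C451A-ERα, 3 with E2+Pg and 3 with E2, and in none of the 9 wild-type mice. It was 5.18 to 5.62 in C451A-ERα LCs with E2+Pg, against 4.93 to 5.38 in wild-type LCs with E2+Pg, and the groups overlapped. It passed the filter only through C451A-ERα mice, so the log2 difference of 0.30 (0.17 to 1.35 in the other settings) is given without a test. Neither gene was called with progesterone. Alox5, which starts leukotriene synthesis, was well above background in 0 of 19 mice (4.38 to 5.26).

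Alox5ap was at 5.99, 6.73, 5.84, 5.91 and 5.85 in C451A-ERα LCs with E2+Pg, against 7.18, 6.29, 5.95, 6.55 and 7.45 in wild-type LCs with E2+Pg. Under E2 it was at 7.53, 5.57, 6.83, 6.16 and 5.63 in C451A-ERα LCs, against 6.54, 6.04, 6.33 and 6.05 in wild-type LCs. The groups overlapped in every comparison, and the high mice were L4 and L27 in one group and L57 and L21 in another. The genotype difference with E2+Pg was -0.62 ± 0.34 (log2 difference and SE), which did not pass the test (limma, adjusted p = 0.315). Without L4, L27 and L18, chosen after the data were seen, it was -0.79 (limma, adjusted p = 0.0359). That setting removes L18, the highest Alox5ap value of its group, and called 14.6% of all genes.

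Over the 19 mice and 20779 genes compared, the genes with the highest Pearson correlation to Alox5ap, looked up after its values were seen, were Tyrobp (r = 0.94, Spearman's rho = 0.94), C1qb (r = 0.93, rho = 0.95), Fcer1g (r = 0.93, rho = 0.88), C1qa (r = 0.93, rho = 0.93) and Fcgr3 (r = 0.92, rho = 0.89), signaling adaptors, complement subunits and an antibody receptor of myeloid cells. Taken as deviations from the group means, the correlation was 0.92 to 0.95 for all 5. The highest macrophage deviations were those of L21 (0.83), L57 (0.75), L4 (0.49) and L67 (0.44), and the pan-leukocyte list was highest in L21 (1.40). The macrophage list holds C1qa and C1qb, and the pan-leukocyte list holds Fcer1g and Tyrobp, so these deviations are not separate from the correlations. Adgre1, which defines mouse macrophages, was well above background in 12 mice, at 4.95 to 6.77 over all 19. C1qa (5.54 to 7.63), C1qb (5.71 to 7.67), Tyrobp (5.83 to 8.21) and Fcer1g (6.32 to 8.17) were well above background in all 19 mice. The sort kept CD45-negative and CD31-negative cells, a gate meant to leave out leukocytes and endothelium. RNA of Ptprc, the gene of CD45, was well above background in all 19 mice, at 8.13 to 10.57. The part of such cells in the Alox5ap values was not tested.

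Alox12 shared its pattern with Gpx1 (r = 0.96, rho = 0.92), a glutathione peroxidase that reduces lipid hydroperoxides, Srgap1 (r = 0.96, rho = 0.93), Mx1 (r = 0.96, rho = 0.89), an interferon-induced antiviral protein, Clic3 (r = 0.95, rho = 0.95) and AA467197 (r = 0.94, rho = 0.86). These are the 5 highest of the genes compared over 19 mice, and their correlation within groups was 0.85 to 0.89. Without the 2 mice farthest from the Alox12 median they were 0.89 to 0.95. The wild-type mice L67, L50 and L52 with E2 had the 3 highest Alox12 levels. Mx1 was at 8.69, 9.98 and 9.16 in these mice, against 6.03 in L72, the wild-type E2 mouse with little Alox12. The list of Alox15 was headed by Krt4 (r = 0.86, rho = 0.76), a keratin of mucosal epithelia, Snai1 (r = 0.86, rho = 0.83), a transcription factor of epithelial plasticity, Sprr2k (r = 0.85, rho = 0.87), Lrrc8d (r = 0.85, rho = 0.84) and Morrbid (r = 0.84, rho = 0.85), with 0.54 to 0.78 within groups. These points share arrays, scaling and the E2 mice that chose both genes, so the correlations are a description.

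The lowest correlations with Aloxe3 over 19 mice, looked up after its values were seen, were those of Dnajc9 (r = -0.98), an uncharacterized transcript, Rfc5 (r = -0.97), Prim1 (r = -0.97) and Tubb5 (r = -0.97), of which Rfc5 loads the replication clamp and Prim1 is the DNA primase subunit. Prim1 was at 11.24 in L4, 11.18 in L27 and 11.25 in L18, where Aloxe3 was lowest, and at 8.12 in L63, where it was highest. The genes most like Aloxe3 were Mafk, Micall1, Sh3bp2, Plk3 and BX524511 (each r = 0.96). Among the members themselves, Alox15 and Alox12 had r = 0.72 over the 19 mice and 0.31 within groups, and Alox12 and Alox12e had r = -0.25 over the 19 mice and 0.21 within groups.

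**Figure D3:**
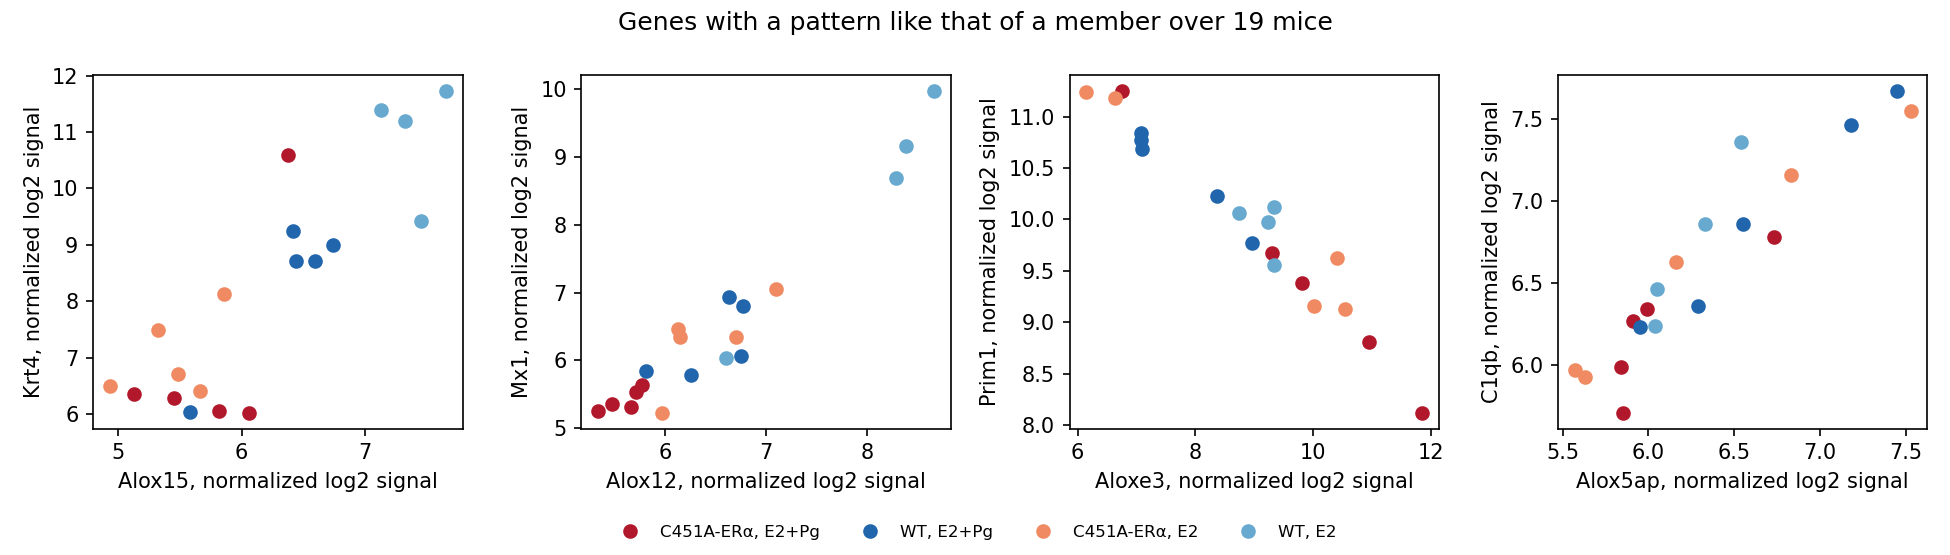
Normalized log2 signal of a member (horizontal axis) against that of a gene with a like or opposite pattern (vertical axis), 1 point per mouse, coloured by group. Krt4 and Mx1 rise with Alox15 and Alox12, Prim1 falls as Aloxe3 rises (r = -0.97), and C1qb rises with Alox5ap within every group.

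The genes around Alox15, Alox12e and Alox12 were examined for a shift of the whole region. Within 250 kb of the 3 probes on mm9, 24 other genes or transcripts passed the filter. None of them was called in any comparison (limma, with 3 to 5 of 24 at an unadjusted p below 0.05 in each, beside 9.36% to 18.3% of all genes), and under E2 their log2 differences were -1.07 to 0.57, with no gene whose groups did not overlap. Rnasek, a ribonuclease whose probe starts 3801 bases from that of Alox12, was at 10.73 ± 0.15 in C451A-ERα LCs with E2 (SD, n = 5) and 10.75 ± 0.28 in wild-type LCs with E2 (SD, n = 4). Pelp1, a coregulator of the estrogen receptor and the nearest named gene beyond Alox15, was at 9.38 ± 0.24 in C451A-ERα LCs and 9.39 ± 0.09 in wild-type LCs with the same n. The unnamed transcripts between Alox15 and Pelp1 had log2 differences of -0.26, -0.01 and -0.17 under E2 (limma, adjusted p = 0.64, 0.99 and 0.895).

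**Figure D4:**
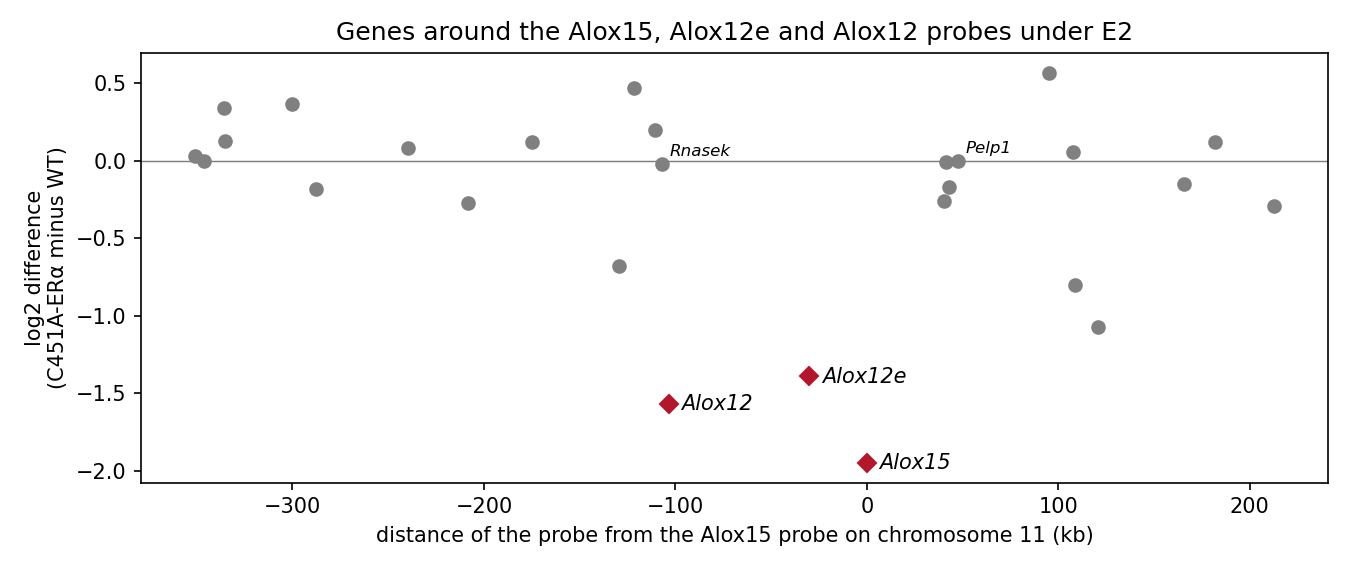
Log2 difference under E2, C451A-ERα minus wild-type (vertical axis), against the distance of each probe from the Alox15 probe on chromosome 11 in kb (horizontal axis). Diamonds are the 3 lipoxygenases, at -1.95, -1.39 and -1.57, and grey points are the 24 other genes or transcripts, which lie between -1.07 and 0.57.

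The pathway that feeds and follows the lipoxygenases was taken as 7 lists of 104 entries, of which 76 passed the filter. Between genotypes, 0 of 76 were called under E2+Pg (limma, 19 at an unadjusted p below 0.05, beside 18.3% of all genes) and 0 of 76 under E2 (17 at an unadjusted p below 0.05, beside 13.6% of all genes). Among all genes, 1 of 20803 (0.00481%) was called under E2+Pg and 6 (0.0288%) under E2. Ptgs2, the inducible cyclooxygenase, had the widest spread of the enzymes fixed for naming, at 8.89 ± 1.41 in C451A-ERα LCs with E2 (SD, n = 5) and 10.82 ± 1.12 in wild-type LCs with E2 (SD, n = 4), and did not pass the test (limma, adjusted p = 0.327). Gpx4, which reduces lipid hydroperoxides in membranes, was at 14.36 ± 0.14 in C451A-ERα LCs and 14.30 ± 0.17 in wild-type LCs with E2, and Acsl4, which loads polyunsaturated fatty acids into membranes, at 11.50 ± 0.19 and 12.19 ± 0.56 in the same groups and order (limma, adjusted p = 0.226). The other fixed names, Ptgs1, Hpgd, Lta4h and Ltc4s, had genotype differences between -0.97 and 0.38, none called.

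For progesterone, 24 of 76 pathway genes were at an unadjusted p below 0.05 in wild-type LCs (limma), beside 16.2% of all genes. The count was 27 of 76 in C451A-ERα LCs (limma), beside 18.3% of all genes. In wild-type LCs 3 of 76 were called, all lower with E2+Pg, against 273 of 20803 genes called in either direction (1.31%). Pla2g4a, the phospholipase that releases arachidonic acid, was at 9.09 ± 0.09 with E2+Pg (SD, n = 5) and 10.11 ± 0.20 with E2 (SD, n = 4; limma, adjusted p = 0.0203), a fold of 2.03. The prostaglandin transporter Slco2a1 fell by 1.27 on the log2 scale (limma, adjusted p = 0.0415) and Gpx1 fell by 0.76 (limma, adjusted p = 0.0293). With the slide as a block 0 of 76 were called in wild-type LCs, and 0.365% of all genes, and leaving out 1 mouse gave 0 to 6. In C451A-ERα LCs 8 of 76 were called, 2 higher and 6 lower, against 510 of 20803 genes called (2.45%). Akr1b3, an aldo-keto reductase that can form prostaglandin F, was at 11.69 ± 0.41 with E2+Pg and 13.47 ± 0.74 with E2 (SD, n = 5 each; limma, adjusted p = 0.0133). Slco2a1 fell by 1.13, Ggt1, which trims leukotriene C, by 1.26, Ptgr1, which inactivates prostaglandins and leukotrienes, fell by 0.80, Mgst3 fell by 0.67 and Acsl5 fell by 0.63 (limma, adjusted p = 0.00936 to 0.0369). The 2 higher genes were both receptors of prostaglandin E: Ptger4 was higher by 0.91 (limma, adjusted p = 0.0194), and Ptger2, named after its value was seen, by 0.77 (limma, adjusted p = 0.0483).

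The median log2 difference of the 76 pathway genes between E2+Pg and E2 was -0.08 in wild-type LCs, beside 0.04 over all genes, and -0.04 in C451A-ERα LCs, beside 0.00 over all genes. The 9 genes of leukotriene synthesis and turnover had the lowest list median in C451A-ERα LCs, at -0.42, with 2 called lower. No pathway gene and none of the 5 members open to a test was called in the interaction of genotype and progesterone (limma, 4 of 76 and 0 of 5 at an unadjusted p below 0.05, beside 9.36% of all genes), and 0 of 20803 genes were (0.0%). The genotype counts depended on single mice, over all genes as in the pathway. Without the C451A-ERα mouse L18, 9 of 76 pathway genes and 1099 of all genes (5.28%) were called between genotypes under E2+Pg, and without the wild-type mouse L72, 7 of 76 and 1045 of all genes (5.02%) were called under E2.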

How the data were processed

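Intensity values were deposited as scanner files, which the authors made with Agilent Feature Extraction 10.10.1.1. The deposited log2 value table was made by the authors from the median signal, by a filter, a batch correction and quantile normalization, per the study's methods. Here log2 median signals were quantile normalized (limma 3.58.1, R 4.3.3). Control spots and 1370 outlier spots were left out, and no spot was saturated. A probe was kept if it stood well above background in 4 or more of the 19 mice, and the brightest of a gene was used. One model of 4 group means was fitted to all arrays, with 15 residual and 2.99 prior degrees of freedom. Genes were called at a Benjamini-Hochberg adjusted p below 0.05 and a fold above 1.5, two-sided. The procedure was tested on simulated data. Upper-quartile signals (75th percentile) ranged between 248.5 and 490, over a background of 21 to 29, and the number of arrays limits the precision. Single comparisons used exact permutation tests with scipy 1.17.1.

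Groups came from the sample labels, and slides from the arrays' identifiers. Each array came from 1 mouse. The members and lists were chosen with earlier results of these data known. Named were all members, up to 6 called pathway genes per comparison with the lowest adjusted p and 8 fixed pathway genes, the nearest neighbours of the Alox15 and Alox12 probes, and the 5 genes most like each of both. Comparisons that share mice were not set against each other. Probe names were updated through a RefSeq table for 33890 probes. The alternatives were other signals and scalings, other filters, the mean of a gene's probes, the slide as a block, only the groups compared, the deposited value table, and leaving out each mouse.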

Additional observations from a re-analysis of the deposited data

Results flagged for a closer look

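Over 28 combinations of a member and a group, 2 held a mouse far from the other mice of its group by Dixon's test, which chance alone gives in about 1 of 20 groups. Alox15 in wild-type LCs with E2+Pg was 5.58 in mouse L21, against 6.42 to 6.74 in the other 4 mice. Alox5ap in C451A-ERα LCs with E2+Pg was 6.73 in mouse L18, against 5.84 to 5.99 in the other 4 mice.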

How the results depend on the processing

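Alox15, Alox12 and Alox12e kept a negative difference under E2 in every setting that gave a value. Nothing is read from this sign, because that comparison chose the family. For Alox15 the difference was -3.22 with the processed signal scaled to its 75th percentile and -1.37 after a normexp background correction, against -1.95 as reported, and the cause was not tested. With probes required above background on all arrays, Alox15, Alox12, Alox8 and Alox12b gave no value. Leaving out 1 mouse moved the rise of Alox12e in wild-type LCs between 2.07 and 2.46 and the number of members called there between 0 and 1, and with the slide as a block it was 2.19 and 0 members were called. The Alox12e call in C451A-ERα LCs kept its direction and side of the threshold in all alternatives. Leaving out 1 mouse moved the genotype difference of Alox12e with E2+Pg between -0.72 and 0.04, and that of Alox5ap between E2+Pg and E2 in C451A-ERα LCs between -0.47 and 0.02. Without L4, L27 and L18, chosen after the data were seen, this Alox5ap difference was 0.11, and 2 members, Aloxe3 and Alox5ap, were called between genotypes with E2+Pg, along with 14.6% of all genes, and the cause was not tested.

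Pathway genes called between genotypes numbered 0 to 9 with E2+Pg and 0 to 7 under E2 when 1 mouse was left out, 16 and 3 without L4, L27 and L18 (beside 14.6% and 1.46% of all genes), and 1 under E2 in the deposited value table (beside 0.667%). Those called with progesterone in wild-type LCs numbered 0 to 6 when 1 mouse was left out, 1 with the processed signal, 1 with the median signal scaled to its percentile, 0 with the slide as a block and 12 without the 3 mice (beside 3.83% of all genes). In C451A-ERα LCs they numbered 1 to 10 when 1 mouse was left out, 1 when only the 2 groups compared were fitted and 2 without the 3 mice (beside 0.538%). For Alox8 and Alox12b, 7 differences near 0 changed sign in 43 of 190 refits, and 0 were called. The interaction could not be fitted with only 2 groups. Dim members limit what can be read: Alox5, Alox8 and Alox12b lay at or near background. In C451A-ERα LCs, Alox12 with E2+Pg (5.34 to 5.77) and Alox15 with E2 (4.93 to 5.86) were also near it.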
